A study of Mus musculus with 4 samples.

Results

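Fgfr2, which encodes a receptor tyrosine kinase for fibroblast growth factors, carried more regions than any other gene label in a table of methylated DNA from mouse CD4+ T cells. It was chosen by that number, which is a measured property of the table: 39 of the 10000 regions bear the label Fgfr2, against 27 for the next label, AC114005.5. The 39 regions lie on chromosome 7 of build mm9 between 137312307 and 140197807, a span of 2885.5 kb. Of them, 4 lie in the first 100 kb of that span, 10 lie between 252.7 and 933.2 kb from its lower end, and 25 lie on the far side of regions that carry the label of another gene, 5430419D17Rik. All 39 are annotated as intronic.

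The study captured methylated DNA with a methyl-CpG-binding domain protein from 4 sorted populations of CD4+ T cells, with 1 library for each, all from Balb/c females. Naive T cells were CD3+ CD4+ cells in the high CD45RB gate. Cells in the low CD45RB gate were taken as Th1 when they released interferon gamma without IL-17A, and as Th17 when they released IL-17A without interferon gamma. Regulatory T cells (Treg) were sorted by strong CD25 staining. Cells of the naive, Th1 and Th17 populations, from spleen and lymph nodes, received 10 ng/ml PMA with 500 ng/ml ionomycin during 3 h before sorting, and Treg cells received PMA and ionomycin after sorting. The number of mice behind each library, and whether their cells were pooled, was not given in the sources used here. With 1 library per population, no difference below has a replicate check, and intervals are exact at 95% and cover counting error only.

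Fgfr2 protein binds fibroblast growth factors outside the cell, together with heparan sulfate, and signals inward through its kinase domain to the adaptor Frs2 and the Ras and phospholipase C gamma pathways. Alternative splicing of its extracellular part gives an epithelial and a mesenchymal form that prefer different ligands, and the epithelial form acts in the growth of limb, lung, skin and thymic epithelium. Its best known roles lie in epithelium and mesenchyme and not in mature T cells. The gene is transcribed from the reverse strand, so higher coordinates lie on the side of its start. Capture by a methyl-CpG-binding domain yields more reads where CpG sites are methylated and where they are dense, and introns of silent and active genes alike are commonly methylated.

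Every one of the 10000 regions was listed at 0 in the Th17 library, the 39 Fgfr2 regions included, so a Th17 value of 0 belongs to the choice of the table and not to Fgfr2. The naive library held 34277 reads in the table, the Th1 library 19548 and the Treg library 74571. A read counted 0.996 units in the deposited naive values, 1.68 in Th1 and 0.352 in Treg. Of genes that mark cell populations, 0 of 4 naive, 0 of 2 Th1, 0 of 4 Treg, 0 of 2 general T cell and 0 of 3 myeloid genes had a region. A selected set of methylated regions does not measure expression, so these counts do not check the identity of the cells.

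The position of the regions was described first. The deposited table gives the location of each region as promoter, exon or intron of a labelled gene. It does not give the ends of the gene, and its column of distances to a start site was not used here. No Fgfr2 region was annotated as promoter or exon, whereas 4.77% of all regions in the table were promoter regions and 16.6% exonic. Of the other 56 labels with 10 or more regions, 32 also had intronic regions alone. The distance from the lowest Fgfr2 region therefore stood in for the distance from the gene, with 100 kb taken as near. Where the gene itself lies along the span was not analysed, so near below means near the lower end of the span.

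The 4 near regions began at 0, 20.3, 40.7 and 85.7 kb from the lower end of the span. They lay at 137312307 to 137312491, 137332644 to 137332942, 137352979 to 137353237 and 137398004 to 137398214, and together they spanned 85.9 kb. The gaps between them were 20.2, 20.0 and 44.8 kb. Above the fourth region came a gap of 166.8 kb with no region of the table. Measured from the first to the last region of each stretch, the near stretch held 46.6 regions per Mb. The middle stretch held 14.7 and the far stretch 13.9. The near figure rests on 4 regions and leaves out the gap above them.

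The middle stretch held 10 regions between 137565055 and 138245767, all still below the first region labelled 5430419D17Rik. Its lowest members stood alone at 137565055 to 137565268 and at 137692380 to 137692656. The next 3 lay within 2.21 kb of each other, between 137879192 and 137881403, with gaps of 939 and 371 bp. A pair followed at 138073272 to 138073676 and 138075756 to 138076111, 2.08 kb apart. The last 3 lay at 138212713 to 138212977, 138238186 to 138238399 and 138245529 to 138245767.

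The other label inside the span, 5430419D17Rik, had 3 regions. They were 2 intronic regions at 138328140 to 138328350 and 138330626 to 138330820, and 1 region in exon 19 at 138386440 to 138386721. Only 9.893 kb separated that exonic region from the next region labelled Fgfr2, which opened the far stretch at 138396614 to 138396860. The label of intron of Fgfr2 thus resumed directly above an exon of another gene. No other label occurred between 137312307 and 140197807.

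The far stretch held 25 regions from 138396614 to 140197807. Its outermost members were at 139912084 to 139912303 and 140197543 to 140197807, 2599.8 and 2885.2 kb above the lowest region. The widest gap among the 39 regions, 395.6 kb, lay inside this stretch, below the region at 138923964. Over the whole span, 11 of the 38 gaps were wider than 100 kb and 5 were under 3 kb, with a median of 39.4 kb.

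**Figure D1:**
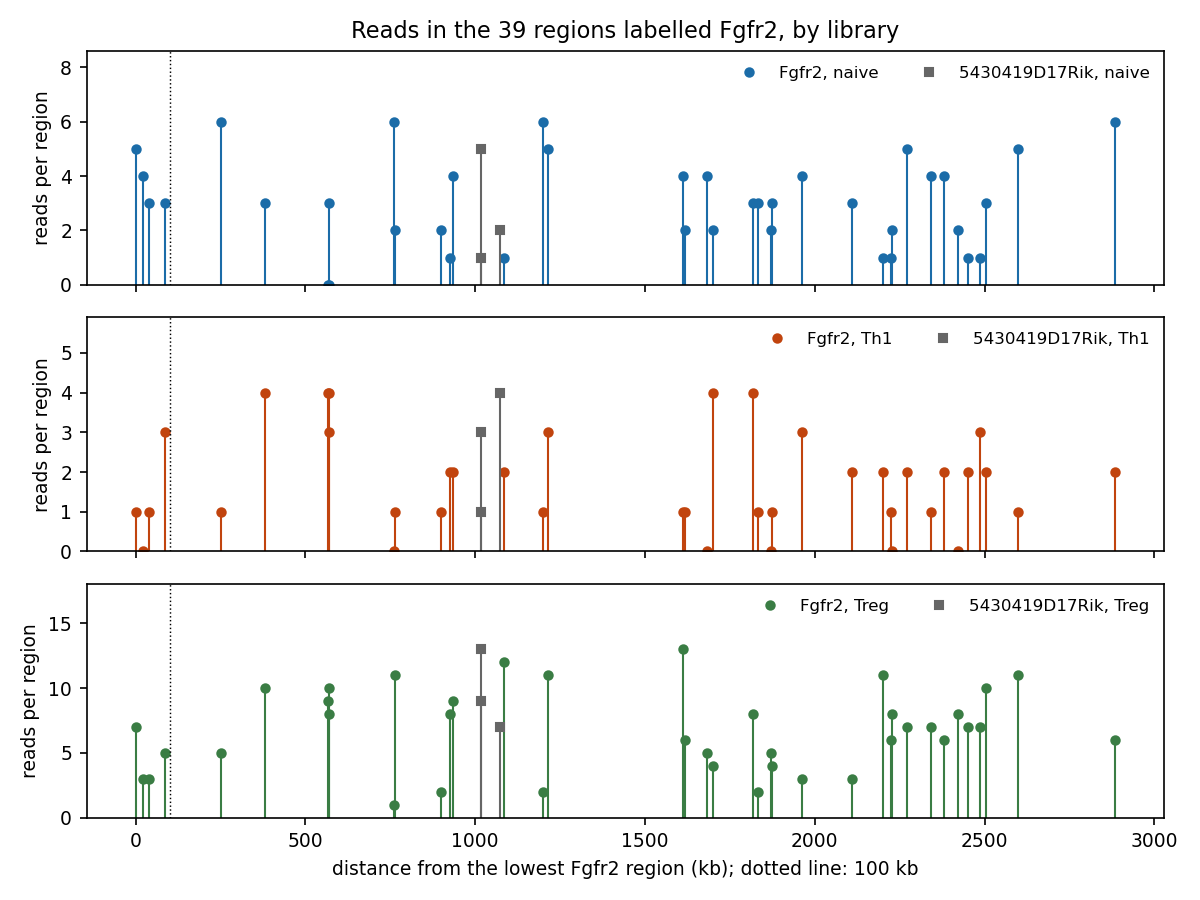
Reads per region (y axis) against distance from the lowest Fgfr2 region in kb (x axis), for the naive, Th1 and Treg libraries; circles are the 39 Fgfr2 regions, grey squares the 3 regions labelled 5430419D17Rik, and the dotted line marks 100 kb. The 4 near regions stand left of the line, and 25 of the 39 lie to the right of the 5430419D17Rik regions.

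The order of genes in the RefSeq annotation of GRCm38.p6, used here for names and neighbours and not for coordinates, was then set beside the labels. In that order, 5430419D17Rik is named Cdcp3, and 9 protein-coding genes stand between it and Fgfr2: Ate1, Gm4275, Nsmce4a, Tacc2, Btbd16, Plekha1, Htra1, Dmbt1 and 4933402N03Rik. Ate1 encodes an arginyltransferase that marks proteins for degradation, Tacc2 a centrosome-associated protein, Htra1 a secreted serine protease and Dmbt1 a secreted scavenger receptor protein. None of these 9 genes had a label anywhere in the table, where every region listed between the lowest Fgfr2 region and 5430419D17Rik was labelled Fgfr2. The 25 far regions, labelled as introns of Fgfr2, therefore lay beyond 5430419D17Rik and, if the gene order is the same in mm9, beyond all 9 of these genes. Their place relative to the ends of Fgfr2 itself in mm9 was not analysed here.

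Above 5430419D17Rik the next label in the table was Fank1, with 2 regions, the first at 140982582 to 140982762. Between Cdcp3 and Fank1 the RefSeq order holds 28 protein-coding genes, among them the homeobox genes Hmx2, Hmx3 and Nkx1-2, the spindle checkpoint gene Bub3, the sulfotransferase gene Chst15 and the transcriptional corepressor gene Ctbp2. None of the 28 had a label in the table. Every region listed between 5430419D17Rik and Fank1 carried the label Fgfr2. Whether any of those regions lay within these 28 genes was not examined. Of the 38 protein-coding genes between Fgfr2 and Fank1, 1 was labelled, 5430419D17Rik, whereas 4903 of 21896 protein-coding genes, 22.4%, were labelled in the table at large. The share makes no allowance for the lengths of genes or for the Fgfr2 label on the regions of this stretch.

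Both ends of the span bordered on wide gaps in the table. Below the span, no region of any label was listed for 856.5 kb, down to the last of 3 regions labelled Ppapdc1a at 136455512 to 136455779. That gap covered 739 of the region numbers by which the table identifies its regions, with 0 in the table. Above the span, no region was listed for 784.8 kb, up to Fank1, a gap of 804 region numbers. Within the span, 42 of 2578 region numbers were in the table, 1.63%, of which 39 were labelled Fgfr2. Over the genome as the table spans it, 0.674% of region numbers were listed.

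Set beside other labels with many regions, Fgfr2 was wide and thinly filled. Among the 57 labels with 10 or more regions, Fgfr2 ranked 48 in regions per Mb, with 13.5 against a median of 22.8 for the other 56 (range 7.05 to 57.7). It held 1.51% of the region numbers in its span, which ranked 55, against a median of 2.51% for the others. The near stretch held 3.85% of its 104 region numbers. The middle and far stretches held 1.51% and 1.63% of theirs.

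Fgfr2 and AC114005.5 were the only labels in the table wider than 2000 kb. AC114005.5 spanned 3829.1 kb with 27 regions, and Dmd, the dystrophin gene, came next with 1982.8 kb and 3 regions, then Lrp1b with 1513.1 kb and 6, Ctnna3 with 1483.7 kb and 11, and Cntnap2 with 1459.3 kb and 5. By number of regions, Park2 followed with 26 over 928.8 kb, Sdk1 with 25, Rbms3 with 23, and Auts2 and Cdh13 with 21 each. Of the 57 labels, 52 had no other label inside their span. The 5 that did were Fgfr2 with 1 other label, AC114005.5 with 19, and Arfip1, Ctnna3 and Macrod2 with 1 each. The 19 labels inside AC114005.5 included Ankrd11, Cbfa2t3, Zfpm1 and Tubb3.

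**Figure D2:**
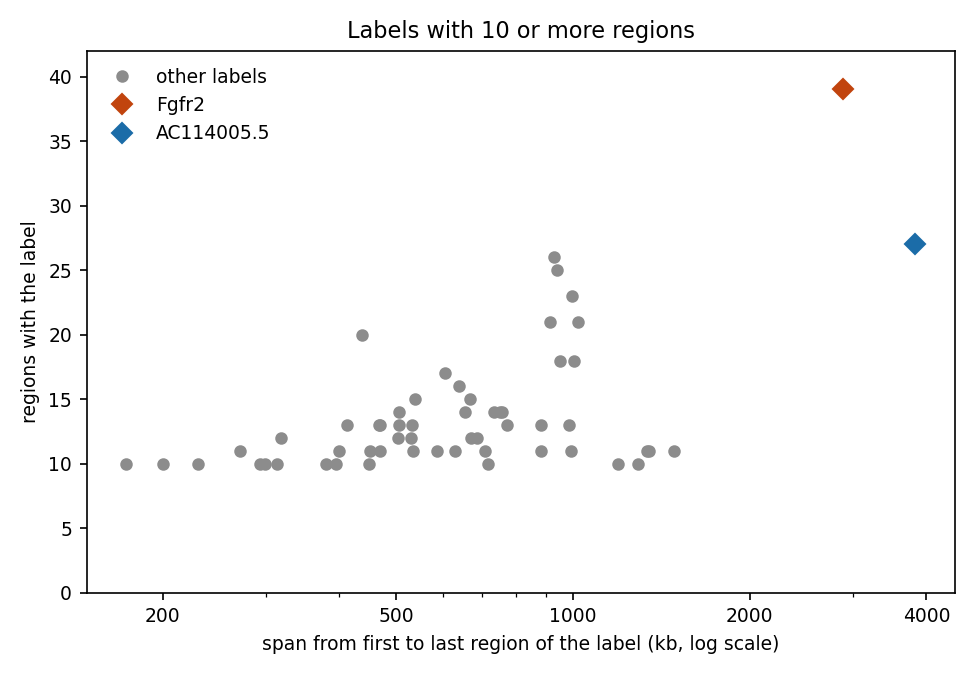
Number of regions per label (y axis) against the span from the label's first to its last region in kb (x axis, log scale), for the 57 labels with 10 or more regions. Fgfr2, with 39 regions over 2885.5 kb, and AC114005.5, with 27 over 3829.1 kb, lie to the right of all other labels.

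The reads in naive, Th1 and Treg cells were examined next. Over all 39 regions, the naive library held 119 reads, the Th1 library 68 and the Treg library 263. Reads per region ranged from 0 to 6 in naive cells with a median of 3, from 0 to 4 in Th1 cells with a median of 2, and from 1 to 13 in Treg cells with a median of 7. These medians equal those of the 7826 other intronic regions in the table. The median of all reads per region was 11 in Fgfr2 and 13 in the other introns. The regions were 143 to 415 bp long, with a median of 254 bp, against 249 bp over the table.

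In deposited units, an Fgfr2 region had a mean value of 3.04 in the naive library (2.52 to 3.64). The Th1 mean was 2.93 (2.28 to 3.72) and the Treg mean 2.38 (2.10 to 2.68). Other introns had means of 3.44, 3.26 and 2.57 in the same order. All 3 means of the other introns lie within the Fgfr2 intervals. The ratio of the summed values of Th1 to naive was 0.964 (0.705 to 1.31) in Fgfr2 and 0.962 in all other regions. That of Treg to naive was 0.782 (0.627 to 0.979) in Fgfr2 and 0.770 in all other regions, and it rested on the deposited scaling: at equal table totals it was 1.02 (0.815 to 1.27), and with median-of-ratios size factors 1.00 (0.804 to 1.26). For Treg to Th1 the ratio was 0.811 (0.619 to 1.08), against 0.800. Summed over its regions, Fgfr2 thus differed between the 3 libraries by about as much as the rest of the table did.

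Of the 39 regions, 31 were read in all 3 libraries, or 79.5%, against 85.9% of the whole table. Regions with no naive read numbered 2 (5.13%, against 1.61% of the table), and regions with no Th1 read 6 (15.4%, against 12.3%). All 39 had at least 1 Treg read. At these depths an absence of reads is weak evidence, since the exact interval of 0 reads reaches 3.67 units in the naive and 6.20 units in the Th1 library.

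The 4 near regions are the ones closest to the lower end of the label. At 137312307 the libraries held 5 naive, 1 Th1 and 7 Treg reads. The region at 137332644 held 4, 0 and 3 reads in the same order, and the region at 137352979 held 3, 1 and 3. At 137398004, the highest of the 4, there were 3 naive, 3 Th1 and 5 Treg reads. The naive value was above the Treg value in all 4, and above the Th1 value in all but the last. Over all 39 Fgfr2 regions, naive was above Treg in 24 and above Th1 in 22. The table leaned the same way, with median log2 ratios to naive of -0.29 for Treg and -0.19 for Th1. Summed, the near regions held 15 naive, 5 Th1 and 18 Treg reads, with mean values of 3.74 (2.09 to 6.16), 2.10 (0.682 to 4.90) and 1.59 (0.940 to 2.51).

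In the near regions the Treg to naive ratio of summed values was 0.425 (0.202 to 0.905), and in the 35 regions beyond 100 kb it was 0.834 (0.660 to 1.06). The intervals overlap, and the difference between the stretches was not tested. The near ratio rests on 4 regions with 33 naive and Treg reads in all. At equal table totals the near ratio was 0.552 (0.263 to 1.18) and that beyond 100 kb 1.08 (0.857 to 1.38), so the near interval excluded 1 at the deposited scaling and not at this one. With near taken as 500 kb, which adds 2 regions, the ratio was 0.487 (0.279 to 0.860), and 0.632 (0.362 to 1.12) at equal table totals. On the side of Fgfr2 below 5430419D17Rik, 14 regions in all, it was 0.767 (0.526 to 1.13).

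Among the middle regions, the 3 neighbours between 137879192 and 137881403 had few naive reads. The first held 0 naive, 4 Th1 and 9 Treg reads, the second 0, 4 and 10, and the third 3, 3 and 8. Summed over these 3 regions, the naive mean value was 0.996 (0.205 to 2.91), the Th1 mean 6.16 (3.08 to 11.0) and the Treg mean 3.17 (2.09 to 4.62). The naive interval lies below that of Th1 and overlaps that of Treg. These were the only 2 members of the 39 with no naive read, and they lay 0.939 kb apart. The 3 regions were singled out after their values were seen.

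The next pair upward went the other way at its first member. The region at 138073272 held 6 naive, 0 Th1 and 1 Treg reads, and its neighbour 2.08 kb above held 2, 1 and 11. Naive signal was thus highest in the first and Treg signal in the second. For the first, the ratio of Treg to naive was 0.0590 (0.00128 to 0.486). That region was named for the size of its ratios, and the interval makes no allowance for this choice. The ratio of Th1 to naive, with 0 Th1 reads, had an upper bound of 1.43. The libraries were thus ordered differently in 2 neighbouring regions, but in the second the intervals of all 3 libraries overlap, so its order is not resolved.

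The other middle regions showed no common order. The region at 137565055 held 6 naive, 1 Th1 and 5 Treg reads. At 137692380 there were 3, 4 and 10, and at 138212713 there were 2, 1 and 2. The regions at 138238186 and 138245529 held 1, 2 and 8 reads and 4, 2 and 9 reads. Summed over the 10 middle regions, the mean values were 2.69 in naive (1.77 to 3.91), 3.70 in Th1 (2.32 to 5.60) and 2.57 in Treg (2.02 to 3.24), and all 3 intervals overlap.

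The 25 far regions made up most of the label and most of its reads, 77 naive, 41 Th1 and 172 Treg. Their mean values were 3.07 (2.42 to 3.83), 2.76 (1.98 to 3.74) and 2.42 (2.08 to 2.82). The first far region, at 138396614, held 1 naive, 2 Th1 and 12 Treg reads. Its 2 neighbours upward, at 138510806 and 138527991, held 6, 1 and 2 reads and 5, 3 and 11 reads. The far stretch thus opened with a region whose highest value was that of Treg and went on to one whose highest value was that of naive cells. The intervals of the 3 libraries overlap in both.

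The 3 regions with the largest Treg to Th1 ratios all lay in the far stretch and all had no Th1 read. They were at 139538420 to 139538562 with 2 naive and 8 Treg reads, at 139733947 to 139734200 with 2 and 8, and at 138993482 to 138993718 with 4 and 5. In each of the 3, the Treg value lay under the 6.20 units that the interval of 0 Th1 reads reaches, so no fold against Th1 is given. The region at 139182991, tied with the last by its ratio, also had no Th1 read, with 2 naive and 5 Treg reads. Its neighbour 1.80 kb above, at 139185031, held 3, 1 and 4.

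The other far regions stood between these. The region at 138923964 held the most Treg reads of all 39, with 4 naive, 1 Th1 and 13 Treg reads, and 6.255 kb above it the region at 138930571 held 2, 1 and 6. At 139013002 there were 2 naive, 4 Th1 and 4 Treg reads, and at 139130501 there were 3, 4 and 8. Th1 signal was the highest of the 3 values in both, as in 39.7% of all regions in the table. The intervals of the 3 libraries overlap in both. The regions at 139145665, 139274774 and 139421935 held 2 or 3 Treg reads, 3 or 4 naive reads and 1 to 3 Th1 reads.

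Further up, the region at 139512457 held 1 naive, 2 Th1 and 11 Treg reads, and the region at 139536172 held 1, 1 and 6. From 139583827 to 139693003, 3 regions held 4 or 5 naive, 1 or 2 Th1 and 6 or 7 Treg reads. The regions at 139763971 and 139799926 held 1 naive and 7 Treg reads each, with 2 and 3 Th1 reads. At 139817918 there were 3, 2 and 10 reads. The outermost regions, at 139912084 and 140197543, held 5, 1 and 11 reads and 6, 2 and 6 reads, so the reads did not thin out toward the upper end.

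By mean value over the 3 libraries, the 5 highest Fgfr2 regions were at 138527991 (4.63 units), 137692380 (4.41), 139130501 (4.18), 140197543 (3.82) and 137881050 (3.62). None was among the 4 near regions, and 3 of the 5 were in the far stretch, which holds 25 of the 39 regions. All 5 lay in the top 25% of all 10000 regions by mean value, the highest at percentile 95.6. Of all 39 regions, 6 lay in the top 25% and 16 in the bottom 25%. The median over the members was 2.84 units, against 3.06 over the table.

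**Figure D3:**
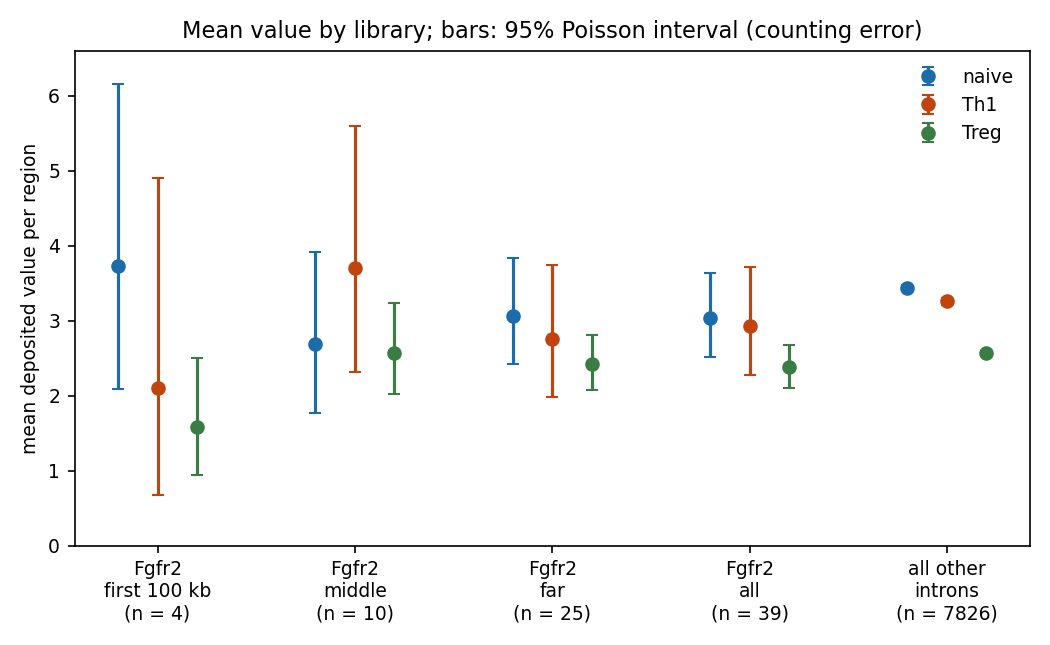
Mean deposited value per region (y axis) in the naive, Th1 and Treg libraries for the near, middle and far Fgfr2 regions, all 39, and all other intronic regions (x axis); bars are exact 95% Poisson intervals for counting error. The intervals of the 3 stretches overlap in each library, and the widest belong to the 4 near regions.

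Each region was then compared between pairs of libraries by size. A region counted as higher or lower when the log2 ratio of its values, each raised by a pseudocount of 0.5 deposited units, was at least 1 in size. Between Th1 and naive cells, 10 of 39 regions were higher in Th1, 25.6%, where 19.4% of all 10000 regions were, and 12 were lower, 30.8%, where 29.0% were. Together that made 22 regions, 56.4%, against 48.3%. The median log2 ratio was -0.19 in the members and -0.19 in the table. The largest ratios were those of the 2 regions without naive reads, at 137880458 and 137879192, with a log2 ratio of 3.85 each. With 0 naive reads, the exact lower bound of their Th1 to naive ratio was 1.11. Both were named for the size of this ratio, and the bound makes no allowance for that choice. The region at 138073272 lay at -3.70.

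Treg and naive cells differed by the size rule in 15 regions, 38.5%, where 30.5% of the table did. Treg was higher in 5 of them, 12.8%, against 8.33% of the table, and lower in 10, 25.6%, against 22.2%. The median log2 ratio was -0.32 in the members and -0.29 in the table. The same 3 regions led, with log2 ratios of 3.01 at 137880458, -2.93 at 138073272 and 2.88 at 137879192. With 0 naive reads, the exact lower bounds of the Treg to naive ratio at 137880458 and 137879192 were 0.793 and 0.698, so neither interval excluded equal values. Both comparisons share the naive library, so a low naive count moves both ratios. With the libraries scaled to equal table totals, 9 regions were higher in Treg and 6 lower, and with median-of-ratios size factors 9 and 7, so the split of the Treg regions between higher and lower turned with the scaling.

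Between Treg and Th1 cells, 13 regions met the rule, 33.3%, where 38.0% of the table did. Treg was higher in 8 of them, 20.5%, against 17.0%, and lower in 5, 12.8%, against 21.0%. The median log2 ratio was -0.22 in both the members and the table. The largest were the 3 far regions without Th1 reads, at 2.73, 2.73 and 2.18, whose size comes from the pseudocount as much as from 5 to 8 Treg reads. Of the 4 near regions, 1 was higher and 1 lower.

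The share of Fgfr2 regions that met the rule was above that of the table by 8.07 percentage points for Th1 against naive and by 7.96 for Treg against naive, and differed from it by -4.64 for Treg against Th1. Over the table, between 30.5% and 48.3% of regions met it, in libraries with a median of 2 to 7 reads per region. A 2-sided exact binomial test of the reads, a comparison of these libraries rather than of cell types, called 0 of the 39 regions in each pair after Benjamini-Hochberg adjustment over all 10000. Over the table it called 0 regions for Th1 against naive, 1 for Treg against naive and 0 for Treg against Th1. At an unadjusted p under 0.05, it counted 2, 3 and 1 of the 39, where 1.53%, 8.40% and 5.01% of the table were counted.

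**Figure D4:**
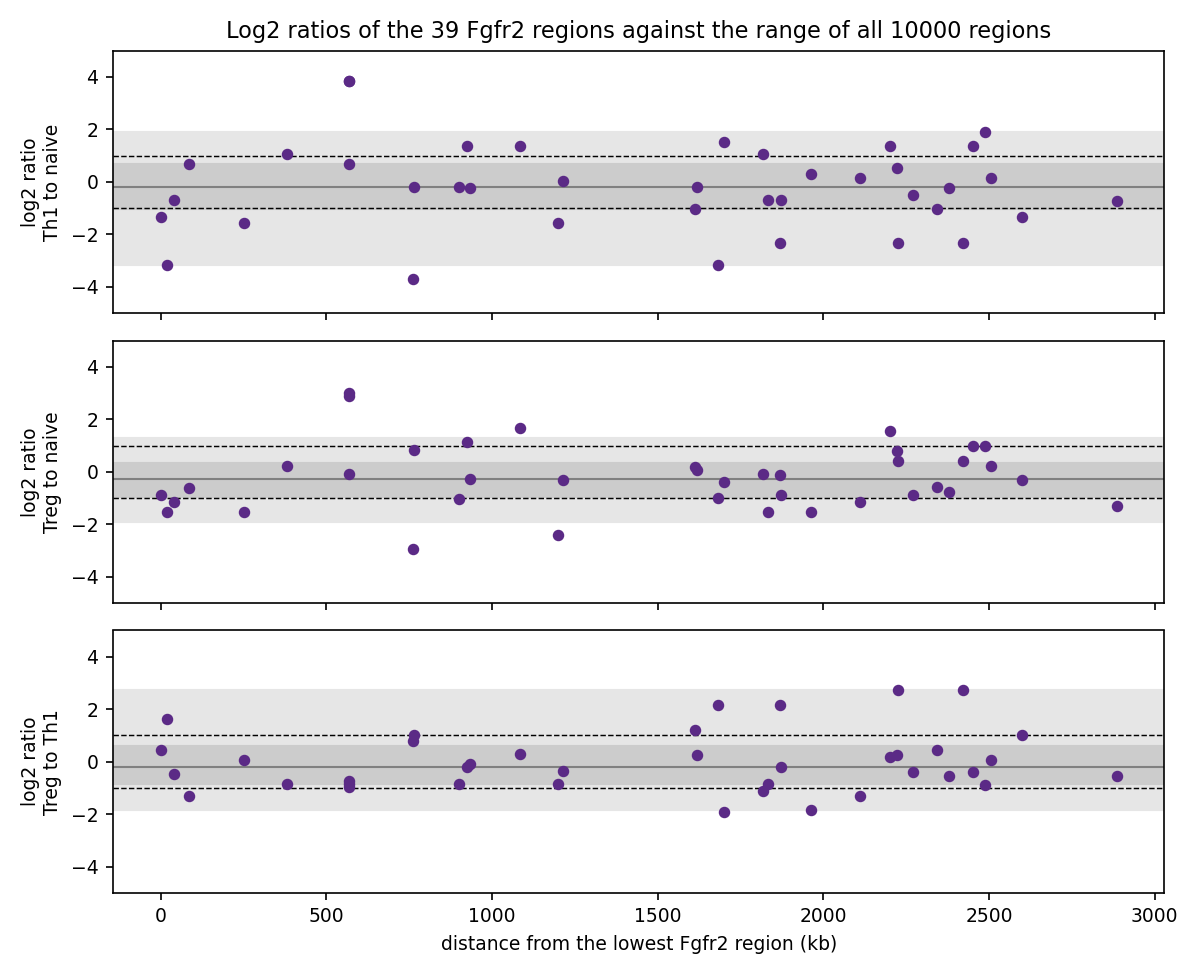
Log2 ratio between libraries, with a pseudocount of 0.5 (y axis), for the 39 Fgfr2 regions against distance from the lowest region in kb (x axis), in 3 pairs of libraries; dark and light bands hold the middle 50% and 90% of all 10000 regions, the line is their median and dashed lines mark the size rule. From the top panel down, 3, 6 and 1 of the 39 points lie outside the light band. The 2 highest points of the upper panels are the regions without naive reads.

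Other genes of the fibroblast growth factor pathway carried fewer regions than Fgfr2, which was chosen for that number. Its label spanned 2885.5 kb, so these counts do not compare the density of regions. Of 57 pathway genes, 23 had a region, 40.4%, where 22.4% of all protein-coding genes had, with no allowance for gene length. The 23 genes include Fgfr2 itself and come from a list chosen with earlier results of these data known. They held 68 regions in all, of which 39 were those of Fgfr2. Among the 5 receptor genes, Fgfr1 had 2 intronic regions on chromosome 8, at 26643211 to 26643540 and 26657270 to 26657637, with 4 naive, 5 Th1 and 21 Treg reads in all. Fgfrl1, a receptor without a kinase domain, had 1 intronic region with 2, 3 and 7 reads. Fgfr3 and Fgfr4 had 0. No other gene of the pathway had more than 2 regions, and the widest stretch among them was 128.6 kb, for the splicing regulator gene Rbfox2.

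Of 22 ligand genes, 5 had regions, where 22.4% of all protein-coding genes had. Fgf10, the mesenchymal ligand of the epithelial form of Fgfr2, had 1 intronic region with 5 naive, 4 Th1 and 4 Treg reads. Fgf2 had 1 promoter region with 2, 2 and 10, the only promoter region of the pathway. Fgf12 and Fgf14, whose proteins act inside the cell on sodium channels, had 1 intronic region each, and Fgf18 had 2. The co-receptor gene Kl had 2 regions and Flrt3, which encodes a membrane protein that binds FGF receptors, had 1.

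Downstream of the receptor, 7 of 9 adaptor genes had regions, where 22.4% of all protein-coding genes had. This count makes no allowance for gene length, and the list was chosen with earlier results of these data known. Frs2, the docking protein of the receptor, had 1 with 0 naive, 5 Th1 and 8 Treg reads, and Grb2, which links it to Ras activation, had 1 with 0, 3 and 14. Both lacked naive reads, as did 1 of the 2 regions of Esrp1, a splicing factor for the epithelial form of Fgfr2, with 4 Th1 and 7 Treg reads. Sos1 and Gab1 had no Th1 read, with 4 and 3 naive and 5 and 14 Treg reads. The same held for 1 of the 2 regions of Etv5, with 3 naive and 9 Treg reads. Over the table, 1.61% of regions had no naive read and 12.3% no Th1 read. The other adaptor genes with regions were Frs3, Plcg1 and Cbl. Among feedback inhibitors, Spred1, Spred2 and Il17rd had 1 region each of 9 genes, and of 3 target genes, Etv5 had 2 regions.

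By the size rule, the 29 pathway regions outside Fgfr2 counted 8 higher and 4 lower in Th1 than in naive, where 19.4% and 29.0% of the table did. Those counts are 27.6% and 13.8% of the 29. In Treg against naive they counted 6 higher and 7 lower, 20.7% and 24.1%, where 8.33% and 22.2% of the table did. In Treg against Th1 they counted 5 and 10, 17.2% and 34.5%, where 17.0% and 21.0% did. Their median log2 ratio of Th1 to naive was 0.40, where that of the Fgfr2 regions was -0.19. The pathway list was chosen with earlier results of these data known, and each gene rests on 1 or 2 regions with few reads.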

How the data were processed

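Per the submitters' processing notes, Bowtie 0.12.7, FastQC and build mm9 were used; how each tool was used, and how regions were called, scaled and chosen, was not given in the sources used here. Per the labels' protocols, DNA was captured with a MethylCap kit and fragments of 250 to 350 bp were sequenced. The deposited table gives a signal per region and library, a scaled read number. All naive, Th1 and Treg signals were whole multiples of 1 constant per library (100% of values, relative tolerance 1e-06), and division gave the reads; the Th17 zeros gave no constant.

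Regions were taken by the label Fgfr2. The members and lists were chosen with earlier results of these data known. A fixed rule named the outermost regions, those with promoter or exon annotation, the 5 highest by mean value and the 3 largest log2 ratios per pair; others were added after their values were seen. The planned definition of near needed promoter or exon regions or gene ends, which Fgfr2 lacks in the table. Distance from the lowest region replaced it, and the table's column of distances to a start site was not used. Alternatives were thresholds, pseudocounts, scalings, a read filter, merging and the exact test. Intervals are exact (Poisson, or Clopper-Pearson for ratios), in scipy 1.17.1. RefSeq (GRCm38.p6) served for names and gene order. No region sequence is printed. The results of the Th17 and B cell marker lists are not reported here.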

Additional observations from a re-analysis of the deposited data

How the results depend on the processing

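With median reads of 2 to 7 per region and 1 library per population, counts by the size rule depended on its settings. With a threshold of 1.5 on the log2 scale, 12 regions differed between Th1 and naive and 7 between Treg and Th1, in place of 22 and 13. A pseudocount of 5 left 3 for Th1 against naive, 1 for Treg against naive and 0 for Treg against Th1, and the exact binomial test of reads called 0, 0 and 0. Keeping the 27 regions with at least 10 reads left 8 in place of 15 for Treg against naive, 5 higher and 3 lower, fewer regions being counted, and 17 for Th1 against naive, 10 higher and 7 lower. Under this filter the summed Th1 to naive ratio was 1.24 (0.874 to 1.76), in place of 0.964. The summed Treg to naive ratio moved from 0.782 to 1.02 at equal table totals and 1.00 with median-of-ratios size factors, by the construction of these scalings. Near regions numbered 4, 6 within 500 kb, and 14 when near meant below the first 5430419D17Rik region, an alternative chosen after seeing the data, as were the exact test and leaving out the 3 adjacent regions. Without those 3, the ratios to naive were 0.829 for Th1 and 0.720 for Treg. Of the 32 alternative values, 20 were within 1.5 times the main count or, for ratios, within the main interval; among them the split for Treg against naive went from 5 higher and 10 lower to 9 and 6 at equal table totals. No paired analysis was possible because each population has 1 library. Leaving out a replicate was not run for the same reason.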
